A study of Mus musculus with 6 samples.

Results

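The genes described here are 9 transcription factor genes at the output side of the circadian clock, found by their symbols in a table of 18268 genes. They are the REV-ERB receptors Nr1d1 and Nr1d2, the PAR bZIP activators Dbp, Tef and Hlf, the D-box repressor Nfil3, and the clock repressors Ciart, Bhlhe40 and Bhlhe41. They were chosen by their FPKM in these same 6 mice and by the order of the mice within each group. FPKM is a fragment count scaled for transcript length and library size. The levels and group differences of the 9 genes are therefore given as a description, with no test. RNA was sequenced from colorectal tissue of adult male C57BL/6 mice with colitis, a mouse model in which dextran sulfate sodium (DSS) in the drinking water injures the gut lining. Every mouse took DSS over 7 days. Over 6 days 3 of them were gavaged with the plant alkaloid berberine (BBR) and the other 3 with Sulfasalazine (SASP), a prodrug of the aminosalicylate class. Mice without colitis or without a drug were not analysed here, so each difference is between the drugs. Each sample is called a mouse here, although the labels do not say that samples are separate animals. The study's methods place colon collection from the morning onwards unless stated otherwise. The hour for each mouse is not in the labels, and its part in these values was not tested.

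In the clock, CLOCK and BMAL1 (encoded by Arntl) bind E-box sequences and switch on their own repressors, the Per and Cry genes, along with Nr1d1, Nr1d2, Dbp and Tef. REV-ERB proteins bind ROR elements, at which they repress Arntl, Npas2 and Nfil3, while ROR receptors activate from the same elements. DBP, TEF and HLF activate from D-box sequences that NFIL3 (E4BP4) represses, and enzymes and transporters for foreign compounds are among their known targets. CIART, BHLHE40 (DEC1) and BHLHE41 (DEC2) repress transcription driven by CLOCK and BMAL1. Cells of the gut wall carry such a clock themselves.

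All 9 colon epithelium markers were above 0 in every mouse, the lowest at 3.74 FPKM. The markers of other cell types listed below were above 0 as well, so this does not test the tissue label. An estimated 16400000 to 18200000 reads lay behind each library. BBR mouse 3 stood apart from the other BBR mice, with a correlation across genes of 0.953 and 0.949 to them against 0.987 between them, so the main values of the members that it moves are also given without it. Its summed level of 9 smooth muscle markers was 7310 FPKM, against 3130 and 3330 FPKM in BBR mice 1 and 2 and 846 to 2580 FPKM in SASP mice.

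Reference promoters show which clock elements the members carry near their start sites. RefSeq promoter sequences (build GRCm38.p6, not the mm9 build in the submitters' processing notes) covered 250 bases before to 50 after the start of 8 of the 9 genes, as 9 promoters, and Bhlhe40 had none. The promoters of Nr1d1, Tef, Nfil3 and Ciart are shown because each holds a different arrangement of the elements named above. They were read 5′ to 3′ on the strand of the gene, with the matched letters in capitals.
Nr1d1 (chr11:98775328-98775627, minus strand): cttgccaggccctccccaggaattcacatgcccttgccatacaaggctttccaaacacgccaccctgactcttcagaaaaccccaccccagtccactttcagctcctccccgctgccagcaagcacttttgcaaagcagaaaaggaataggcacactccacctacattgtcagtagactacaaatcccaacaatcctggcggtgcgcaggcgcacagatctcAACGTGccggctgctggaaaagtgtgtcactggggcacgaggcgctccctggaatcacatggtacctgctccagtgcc
Tef (chr15:81811164-81811463, plus strand): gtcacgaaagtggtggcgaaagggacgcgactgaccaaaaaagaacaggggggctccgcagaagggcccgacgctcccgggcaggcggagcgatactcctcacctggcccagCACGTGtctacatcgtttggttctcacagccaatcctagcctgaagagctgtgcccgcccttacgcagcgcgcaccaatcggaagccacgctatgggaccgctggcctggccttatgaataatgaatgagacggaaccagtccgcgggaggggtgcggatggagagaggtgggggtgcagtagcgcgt
Nfil3 (chr13:52980990-52981289, minus strand): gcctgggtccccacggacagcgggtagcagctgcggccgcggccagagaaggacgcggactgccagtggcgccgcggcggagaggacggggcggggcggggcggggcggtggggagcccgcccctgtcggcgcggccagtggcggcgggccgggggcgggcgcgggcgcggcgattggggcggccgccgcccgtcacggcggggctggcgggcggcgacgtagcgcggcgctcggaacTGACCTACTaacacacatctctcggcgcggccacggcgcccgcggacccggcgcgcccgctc
Ciart (chr3:95882179-95882478, minus strand): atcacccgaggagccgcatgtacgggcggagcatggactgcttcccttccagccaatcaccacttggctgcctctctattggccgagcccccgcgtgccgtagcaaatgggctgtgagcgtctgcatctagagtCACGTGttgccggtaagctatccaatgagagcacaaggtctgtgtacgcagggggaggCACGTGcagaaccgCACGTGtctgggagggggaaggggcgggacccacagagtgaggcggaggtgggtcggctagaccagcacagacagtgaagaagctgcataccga

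The E-box (CACGTG) was found in the promoters of Ciart, Tef and Bhlhe41, 3 of 8 genes, against 8.09% of all 27025 genes with a promoter sequence. Ciart held 3 copies, starting at -116, -58 and -44 from the start site. Tef has 2 listed promoters, and each held 1 copy. The related E-prime box (CACGTT, read on the other strand as AACGTG) was found in Nr1d1 alone, starting at -28, against 5.44% of all genes. A ROR element (ANTAGGTCA) was found only in Nfil3, at -12 on the other strand, against 0.707% of all genes. The cyclic AMP response element (TGACGTCA) was found in Hlf alone, against 2.03% of all genes. No D-box (TTATGTAA or TTACGTAA) lay in any of these windows, where 1.23% of all genes hold one, and the windows of Dbp and Nr1d2 held none of the 5 elements. Both strands were searched, and a match only says that the letters are there. A missing match only says that the exact letters are not in the window, and sequence outside it was not searched.

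Nr1d1, which encodes REV-ERBα, varied more between mice given the same drug than between the drugs. Nr1d1 (Gene ID 217166) was at 45.75, 26.07 and 5.86 FPKM in BBR mice 1, 2 and 3 and at 13.02, 25.5 and 33.82 FPKM in SASP mice 1, 2 and 3. The groups overlapped, and BBR mouse 3 held the lowest value of all mice while BBR mouse 1 held the highest, 7.81-fold apart. The means were 25.9 ± 19.9 FPKM in BBR and 24.1 ± 10.5 FPKM in SASP (SD, n = 3 each). On the log2(FPKM + 1) scale used for every difference here, the log2 fold change of BBR over SASP was -0.19 (SE 0.69). The difference was 0.60 without BBR mouse 3, 0.09 without SASP mouse 3 and -0.78 without BBR mouse 1, so that its sign depended on single mice.

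Nr1d2, the paralogue that encodes REV-ERBβ, kept the same order of mice within each drug. Nr1d2 (353187) was at 17.09, 12.62 and 6.01 FPKM in BBR mice 1, 2 and 3 and at 6.19, 10.07 and 12.5 FPKM in SASP mice 1, 2 and 3. Its means were 11.9 ± 5.57 and 9.59 ± 3.18 FPKM (SD, n = 3 each). Its log2 fold change, 0.23 (SE 0.38), went from -0.07 without BBR mouse 1 to 0.62 without BBR mouse 3. Per unit of transcript length, Nr1d1 was the more abundant receptor in 5 of 6 mice. The ratio of Nr1d1 to Nr1d2 FPKM was 2.07 to 2.71 in those mice and 0.975 in BBR mouse 3.

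**Figure D1:**
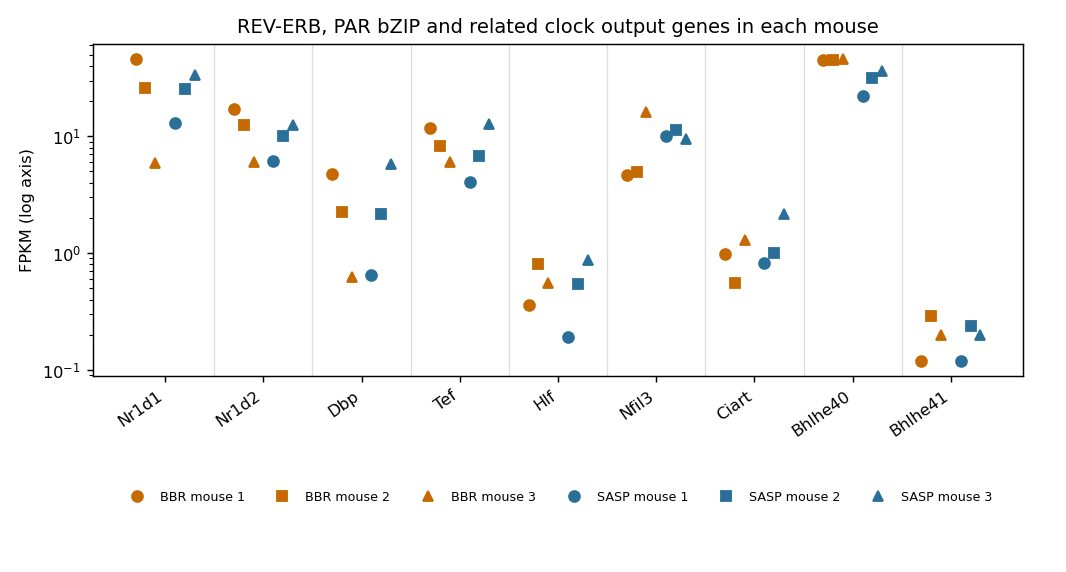
FPKM of each of the 9 genes (logarithmic vertical axis) in the 3 BBR mice (orange) and the 3 SASP mice (blue), 1 point per mouse with a marker shape for its number. Nr1d1, Nr1d2, Dbp and Tef are highest in BBR mouse 1 and SASP mouse 3 within their groups, and Bhlhe40 has all BBR points above all SASP points.

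Among the PAR bZIP activators, Dbp had the widest spread. Dbp (13170), a rhythmic output factor named after the albumin promoter, was at 4.72, 2.25 and 0.62 FPKM in BBR mice 1, 2 and 3 and at 0.65, 2.18 and 5.8 FPKM in SASP mice 1, 2 and 3. The highest and lowest mice were 7.61-fold apart in BBR and 8.92-fold apart in SASP, while the group means, 2.53 ± 2.06 and 2.88 ± 2.64 FPKM (SD, n = 3 each), gave a log2 fold change of -0.08 (SE 0.61). The lowest and highest of these values stood for an estimated 19 and 179 reads. Leaving out SASP mouse 1 gave -0.58, leaving out SASP mouse 3 gave 0.44 and leaving out BBR mouse 3 gave 0.39.

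Tef, which encodes thyrotroph embryonic factor, was the most abundant of the 3 activators per length in every mouse. Tef (21685) was at 11.84, 8.27 and 5.97 FPKM in BBR mice 1, 2 and 3 and at 4.06, 6.74 and 12.75 FPKM in SASP mice 1, 2 and 3. The groups overlapped over most of their range, and the log2 fold change was 0.21 (SE 0.38), between -0.13 without SASP mouse 1 and 0.59 without SASP mouse 3, with 0.42 without BBR mouse 3. Hlf (217082), the hepatic leukemia factor gene, stayed below 1 FPKM in all mice and was not in the fit over all genes. It was at 0.36, 0.8 and 0.56 FPKM in the BBR mice, against 0.19, 0.54 and 0.88 FPKM in the SASP mice, from an estimated 19 to 83 reads. In SASP mice Hlf followed Dbp and Tef in order, whereas in BBR mice its lowest value was in mouse 1, where Dbp and Tef were highest.

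Nfil3, the repressor at the same D-box elements, ran opposite to Dbp in 12 and to Tef in 11 of 15 pairs of mice, and to Hlf in 7. Nfil3 (18030) was at 4.64, 4.96 and 16.25 FPKM in BBR mice 1, 2 and 3 and at 10, 11.23 and 9.4 FPKM in SASP mice 1, 2 and 3. All 3 SASP values lay between BBR mouse 2 and BBR mouse 3, so the BBR group enclosed the SASP group. The means were 8.62 ± 6.61 and 10.2 ± 0.933 FPKM (SD, n = 3 each), with a log2 fold change of -0.42 (SE 0.41). It was -0.14 without BBR mouse 1, -0.18 without BBR mouse 2 and -0.95 without BBR mouse 3.

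Ratios within a mouse do not depend on how the libraries were scaled to each other. The ratio of Dbp to Nfil3 FPKM was 1.02, 0.454 and 0.0382 in BBR mice 1, 2 and 3 and 0.065, 0.194 and 0.617 in SASP mice 1, 2 and 3, a 26.7-fold range over the 6 mice and a 15.6-fold range without BBR mouse 3. Dbp and Nfil3 transcripts were thus near parity per unit of length in BBR mouse 1 and far apart in BBR mouse 3 and SASP mouse 1. Parity did not hold for Tef, which was at 2.55 times Nfil3 in BBR mouse 1. The ratio of Tef to Nfil3 spanned 0.367 to 2.55 and that of Hlf to Nfil3 0.019 to 0.161, again with overlapping groups. Nr1d1 relative to Arntl, a gene REV-ERB proteins repress, was at 1.33, 0.633 and 0.197 in BBR and 0.462, 1.17 and 1.4 in SASP mice 1, 2 and 3. Its range was 7.13-fold, and 3.04-fold without BBR mouse 3. Nr1d1 alone spanned 7.81-fold, while Arntl stayed within 21.8 to 41.17 FPKM over all mice. Nr1d1 and Arntl ordered 8 of the 15 pairs of mice alike and 7 oppositely, with 3 of each among the 6 within-group pairs. Repression of Arntl by REV-ERB proteins was not tested.

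**Figure D2:**
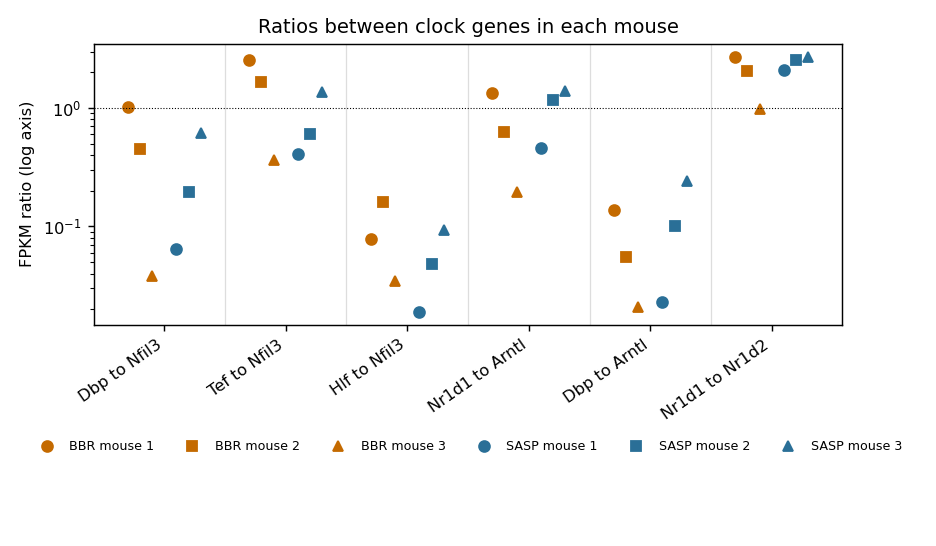
Ratio of the FPKM of a pair of genes in the same mouse (logarithmic vertical axis, dotted line at 1), for BBR mice (orange) and SASP mice (blue), 1 point per mouse. The ratio of Dbp to Nfil3 runs from 0.0382 to 1.02, and the drugs overlap in every ratio.

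Bhlhe40 (20893) was the member with separate groups. It was at 45.46, 45.04 and 45.86 FPKM in BBR mice 1, 2 and 3 and at 22.14, 31.64 and 35.96 FPKM in SASP mice 1, 2 and 3. The BBR values were nearly equal, and each lay above the highest SASP value. The means were 45.5 ± 0.410 and 29.9 ± 7.07 FPKM (SD, n = 3 each). The log2 fold change, 0.61 (SE 0.17), stayed between 0.42 and 0.76 when single mice were left out. Of the 7 members in the fit it was the 1 without overlap, where 37.9% of all tested genes had none (21.3% with BBR above and 16.6% with BBR below). Its family member Bhlhe41 (79362) was the lowest member, at 0.12, 0.29 and 0.2 FPKM in the BBR mice, against 0.12, 0.24 and 0.2 FPKM in the SASP mice. These values rest on an estimated 12 to 29 reads per mouse, and no difference was fitted.

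Ciart (229599), also known as Chrono, was low. It was at 0.98, 0.55 and 1.3 FPKM in BBR mice 1, 2 and 3 and at 0.82, 1.01 and 2.15 FPKM in SASP mice 1, 2 and 3, from an estimated 18 to 70 reads. The groups overlapped, and the mean of BBR, 0.943 ± 0.376 FPKM, was below that of SASP, 1.33 ± 0.719 FPKM (SD, n = 3 each), by a log2 fold change of -0.24 (SE 0.25) that was 0.00 without SASP mouse 3. Among BBR mice Ciart was highest in mouse 3, where Nr1d1, Nr1d2, Dbp and Tef were lowest, and among SASP mice it followed their order.

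Nr1d1, Nr1d2, Dbp and Tef placed the mice in nearly one order, in which both drugs were mixed. For Nr1d1 the order from high to low was BBR mouse 1, SASP mouse 3, BBR mouse 2, SASP mouse 2, SASP mouse 1 and BBR mouse 3. Of the 15 pairs of mice, 14 were ordered alike by Nr1d1 and Dbp, 14 by Nr1d1 and Nr1d2, 13 by Nr1d1 and Tef, and 14 by Dbp and Tef. Within the drugs all 4 genes agreed in each of the 6 pairs. Nfil3 ordered 13 of the 15 pairs opposite to Nr1d1, with SASP mice 1 and 2 as the 1 within-group pair that ran the same way. Some of these pairs rest on small differences. Nfil3 was within 1.19-fold over the SASP mice, and at 4.64 and 4.96 FPKM in BBR mice 1 and 2. The pairs were not counted without BBR mouse 3. Of all 12072 tested genes, 2.23% had the within-group order of Nr1d1, as did 4 of the 7 tested members, Nr1d1 included. The order was known when the genes were listed, so the count is a description.

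**Figure D3:**
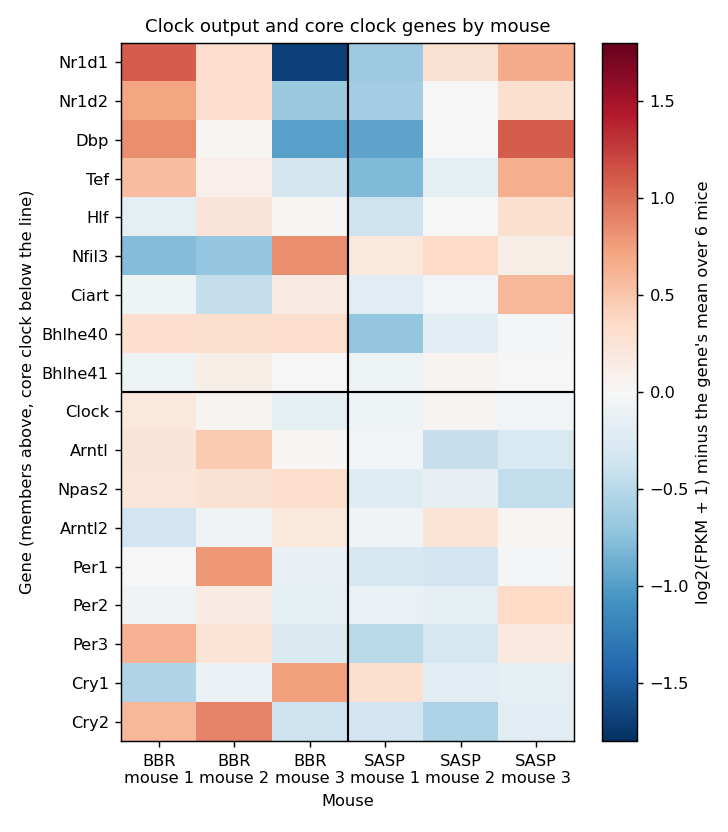
Colour shows log2(FPKM + 1) minus the mean of the gene over the 6 mice, with 1 column per mouse and the drugs parted by the vertical line. The 9 members are above the horizontal line and 9 core clock genes below it. Nr1d1, Nr1d2, Dbp and Tef are high in BBR mouse 1 and SASP mouse 3 and low in BBR mouse 3 and SASP mouse 1, and Nfil3 is highest in BBR mouse 3.

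The spread between mice of one group was wide for these genes beside other genes. The within-group SD of log2(FPKM + 1) exceeded that of 99.4% of tested genes for Nr1d1, 99.1% for Dbp, 97.1% for Nfil3, 96.0% for Tef and 95.9% for Nr1d2. Ciart exceeded 83.7% and Bhlhe40 64.7%. A wide spread was not particular to the members. Among the other tested clock genes the share ran from 0.679% for Tbl1x to 97.7% for Fmo2, with 97.1% for Nr1i3 and 95.9% for Abcb1a. The members were chosen by their values in these same mice, so their spread is a description. The median within-group SD was 0.60 over the 7 tested members and 0.20 over all tested genes. For 6 of the 7, Bhlhe40 being the exception, the difference between the drugs was smaller than 1 within-group SD. Without BBR mouse 3 this held for 4 of the 7 members, as the differences of Nr1d2, Nfil3 and Bhlhe40 then exceeded it. The spread then exceeded that of 98.6% of tested genes for Nr1d1, 99.7% for Dbp, 98.4% for Tef and 94.2% for Nr1d2, but only 34.8% for Nfil3.

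**Figure D4:**
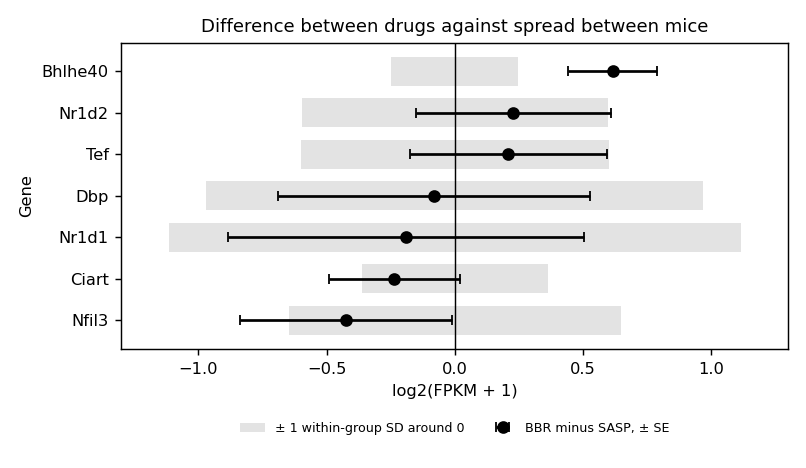
Points show the difference between BBR and SASP in log2(FPKM + 1) for the 7 tested members, with bars of 1 SE, and grey bands show 1 within-group SD on both sides of 0. Bhlhe40, at 0.61, lies outside its band, and the other points lie inside theirs.

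BBR and SASP were compared in 1 linear model over all genes that reached 1 FPKM in 3 or more mice. Of 12072 genes, 8.86% differed at a limma adjusted p-value under 0.05 (3.82% higher and 5.04% lower in BBR). This share depended on single mice, since the count of 1069 genes became 51 without SASP mouse 3 and 4018 without BBR mouse 3, where 65.9% of the calls were higher in BBR. Of the 7 tested members 0 passed, and 1 (Bhlhe40) had an unadjusted limma p-value under 0.05, a level that 31.8% of all tested genes reached. The median log2 fold change was -0.08 over the members, with 3 higher and 4 lower in BBR, and 0.10 over all tested genes. Because this contrast was known when the members were listed, nothing is read from these counts. In whole tissue, fewer cells that make a transcript and less of it per cell cannot be told apart.

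The other genes of the pathway were taken from 8 lists of 56 genes, of which 44 were tested. Of these, 5 were higher and 1 lower in BBR at an adjusted p-value under 0.05, or 13.6% against 8.86% of all tested genes, and their median log2 fold change was 0.16. Values of their genes are given for mice 1, 2 and 3 in that order. The lists were written with earlier results of these data known.

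Of the 4 core clock activators, Npas2, the CLOCK paralogue, was higher in BBR by 0.54 ± 0.11 (log2 fold change ± SE) at a limma adjusted p of 0.037, with means of 21.0 ± 0.715 against 14.2 ± 1.57 FPKM (SD, n = 3 each). Of the 4 activators, Npas2 and Arntl had separate groups and an unadjusted limma p under 0.05. Of all tested genes, 37.9% had separate groups and 31.8% such a p. Arntl was higher in BBR by 0.49 ± 0.15 (log2 fold change ± SE, limma adjusted p = 0.0834) and did not pass. Of the 5 core clock repressors 0 passed in limma, and 0 had an unadjusted p under 0.05. Per3, a period gene, had the within-group order of Nr1d1, at 3.98, 2.81 and 1.68 FPKM in the BBR mice, against 1.31, 1.61 and 2.64 FPKM in the SASP mice. Per1, Per2, Cry1 and Cry2 did not have this order, and Fbxw11, a gene of clock protein turnover, did. It was held by 2.23% of all tested genes, so nothing is read from it. Of 6 genes of the REV-ERB corepressor complex and of 6 tested genes of clock protein turnover, 0 passed in limma in either set, and 1 and 3 had an unadjusted p under 0.05. The 2 tested genes among REV-ERB-repressed genes outside the clock, Ccl2 and Insig2, did not pass either (log2 fold changes -1.03 and -0.11, limma adjusted p = 0.0928 and 0.504), and the other 5 of that list were below the filter.

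Known targets of the PAR bZIP factors held 4 of the 6 pathway genes past the threshold. Of 11 listed, 8 were tested, and 4 passed as higher in BBR and 0 as lower. Of all tested genes, 8.86% passed, 3.82% as higher in BBR. The median log2 fold change was 0.66 over the 8 and 0.10 over all tested genes. The list was written with earlier results of these data known, so nothing is read from the count. Abcb1a, the drug efflux pump P-glycoprotein, was at 229.13, 140.72 and 222.98 FPKM in the BBR mice, against 32.85, 93.72 and 50.92 FPKM in the SASP mice (difference 1.82 ± 0.38 SE in log2, adjusted p = 0.0361 in limma). Ddc, the aromatic amino acid decarboxylase, was at 63.34, 67.81 and 34.16 FPKM in the BBR mice, against 18.2, 26.28 and 18.67 FPKM in the SASP mice (difference 1.31 ± 0.28 SE in log2, adjusted p = 0.0378 in limma). Por, the reductase that passes electrons to cytochrome P450 enzymes, and Pdxk, the pyridoxal kinase, were higher by 0.93 and 1.10 (limma adjusted p = 0.0445 and 0.048). In all 4 genes the groups did not overlap. Of all tested genes, 37.9% had no overlap (21.3% with BBR above). None of the 4 had the within-group order of Nr1d1, Dbp and Tef, which 2.23% of all tested genes had, so nothing is read from this. The calls of Abcb1a, Ddc, Por, Pdxk and Npas2 were lost without BBR mouse 1, BBR mouse 2, SASP mouse 1 or SASP mouse 3, and those of Ddc, Pdxk and Npas2 also without SASP mouse 2. With no filter on low values all 5 were lost. Median-ratio scaling lost Npas2 and Por, a mean FPKM of at least 5 lost Pdxk, and a fit with no mean-variance trend lost Por.

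Of 12 tested genes among other rhythmic outputs, Nampt, the rate-limiting enzyme of NAD salvage, was the 1 past the threshold. Nampt was at 19.6, 20.99 and 20.73 FPKM in the BBR mice, against 62.03, 49.06 and 74.57 FPKM in the SASP mice (difference -1.53 ± 0.16 SE in log2, adjusted p = 0.00558 in limma). All BBR values were below all SASP values, and the call was kept in each of 13 alternatives. Usp2, Wee1 and Tsc22d3, other output genes of the clock, had log2 fold changes of 0.07, -0.15 and 0.12 (limma adjusted p = 0.848, 0.73 and 0.729).

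Genes with profiles most like a member were sought among the tested genes other than the members, by the root mean square distance between centred log2(FPKM + 1) values over 6 mice. For Nr1d1, the member with the widest range, the 5 nearest were Slc37a2 (distance 0.399), Reg4 (0.466), D630039A03Rik (0.481), Ces1f (0.489) and Pkp1 (0.491), against a median of 0.891 over all tested genes. Among the members, Dbp lay at 0.404 and Nr1d2 at 0.483 from Nr1d1. Slc37a2, a sugar phosphate transporter gene, was at 364.65, 309.89 and 103.52 FPKM in the BBR mice, against 147.26, 237.41 and 223.57 FPKM in the SASP mice. For Bhlhe40, the member with the largest difference between the drugs, the nearest were Mroh3 (0.0741), Klf11 (0.0843), Qsox1 (0.0846), Cfap410 (0.0872) and Trim47 (0.0985), against a median of 0.38. These are the extremes of 12072 genes over 6 mice and describe likeness in these libraries.

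Markers of the cell types in the tissue also differed between libraries. Summed levels of 9 smooth muscle markers were 3130 to 7310 FPKM in the BBR mice, against 846 to 2580 FPKM in the SASP mice, higher by their means in BBR for 9 of 9 genes. Summed levels of 8 stromal markers were 308 to 417 and 149 to 244 FPKM, and those of 6 pan-leukocyte markers 22.5 to 34.9 and 36.8 to 66.5 FPKM. The 5 endothelial markers summed to 13.9 to 27.7 and 7.99 to 11.4 FPKM, and the 6 enteric glia and neuron markers to 13.2 to 42.7 and 8.8 to 19.3 FPKM. The 9 colon epithelium markers summed to 5800 to 7710 FPKM in the BBR mice, against 5660 to 5860 FPKM in the SASP mice. No marker was at 0 in any mouse. The groups of the smooth muscle, stromal, leukocyte and endothelial sums did not overlap. Of all tested genes, 37.9% had groups that did not overlap, so no member is set against these sums. None of the 6 sums ordered all 6 mice as Nr1d1 did. That exact order was held by 0.0828% of all tested genes and by 1 of the 7 tested members, Nr1d1 itself, so nothing is read from this. The part of cell composition in the members' values was not tested.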

How the data were processed

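Colorectal RNA of 3 BBR and 3 SASP colitis mice was analysed, with groups taken from the treatment labels. Mouse numbers follow accession order and pair no mice. The deposited FPKM were calculated by the authors with RSEM 1.2.12 after filtering with SOAPnuke and alignment with Bowtie2 2.2.5. The submitters' processing notes name mm9, and the annotation is not given in the sources used here. The study's methods describe rRNA depletion and single-end reads on a BGISEQ platform, whereas the labels describe Illumina TruSeq libraries.

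FPKM were transformed as log2(FPKM + 1), which understates changes of low genes. Genes with FPKM of at least 1 in at least 3 mice were fitted in limma 3.58.1 (R 4.3.3) with a mean-variance trend and Benjamini-Hochberg adjustment (two-sided, threshold 0.05). The fit was tested on simulated data. With 3 against 3 mice an exact permutation test of a single gene could not reach the threshold and was not used. The labels do not say that samples are separate animals, so p-values measure only the spread between these samples.

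The members and lists were chosen with earlier results of these data known. Genes named were the 9 members, list genes past the threshold (at most 3 per list by smallest p), and the 5 nearest profiles to 2 members. Pdxk and genes named as not past the threshold were added after their values were seen.

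Depth was estimated from genes above 0 in 1 mouse only, with GENCODE M21 transcripts under 1500 bases, taking the median such value as 1 read. Estimates rest on 31 to 56 genes per library, are approximate, and convert to reads per gene with its longest transcript. Sequences are from RefSeq. Protein identity was not analysed here. The values of 1 short clock list are not reported here.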

Additional observations from a re-analysis of the deposited data

How the results depend on the processing

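The 7 fitted members were described under up to 13 alternatives (12 for Dbp, 9 for Ciart). Bhlhe40 (0.42 to 0.76) and Nfil3 (-0.95 to -0.14) kept the sign of their log2 fold change. Ciart kept it where it passed the filter (-0.54 to -0.08), but its difference was 0.00 without SASP mouse 3, where it did not pass. Nr1d1 changed sign in 3 (0.48 with array quality weights), and Nr1d2, Dbp and Tef in 2 each. Without a mouse the median of the members ranged from -0.39 to 0.51, so its sign depended on single mice. Of the members, 0 passed the threshold in limma, but 3 (Nfil3, Ciart and Bhlhe40) did with array quality weights and 1 at an unadjusted p under 0.05, and 0 to 1 without a mouse (Nfil3 without BBR mouse 3). Of the other clock genes, 6 passed, 1 with no filter, 29 with array weights, 14 at an unadjusted p under 0.05, and 1 to 17 without a mouse. The most came without BBR mouse 3, and 1 remained (Nampt) without BBR mouse 1, BBR mouse 2, SASP mouse 1 or SASP mouse 3. Over all genes 1069 passed (461 higher, 608 lower), with 608 with no filter, 1737 with quantile normalization, 1684 with median-ratio scaling (498 higher, 1186 lower), 7126 with array weights (4636 higher, 2490 lower), 3837 at an unadjusted p under 0.05, and 51 to 4018 without a mouse. The fewest came without SASP mouse 3 and the most without BBR mouse 3. Without BBR mouse 1, BBR mouse 2, SASP mouse 1 and SASP mouse 2 the counts were 131, 371, 59 and 405. Median-ratio scaling moved the median of all genes from 0.10 to -0.02. The cause was not tested. No paired analysis was possible because the labels give the groups no shared numbers. Hlf, Bhlhe41, Ciart and the low Dbp values rest on few reads.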
